A study of Mus musculus with 8 samples.

Results

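Pools of sorted mouse kidney cells that expressed an activating form of the transcription factor Tbx18 were set against pools that lacked Tbx18. The comparison used the 2 Tbx18VP16 and the 3 Tbx18 null arrays, 5 of the 8 arrays of the series, over the 39429 probes that both array designs carry. Every sample was a pool of about 100000 GFP-positive cells of both sexes, sorted in several rounds from E11.5 kidney rudiments of NMRI embryos. Null embryos were Tbx18(GFP/GFP), with GFP carried by both alleles of Tbx18. Tbx18VP16 embryos were Tbx18(cre/+);Hprt(CAG:Tbx18VP16-GFP): 1 allele of Tbx18 carried Cre, the other was wild-type, and cells with Cre activity expressed the fusion and GFP from the X-linked Hprt locus under the CAG promoter. Control embryos were Tbx18(GFP/+). Their 3 arrays helped to estimate the spread and also counted in the choice of the genes tested and of the probe for each gene. Cells were thus gated on GFP from different loci in the groups compared, and a difference in which cells passed the gate cannot be told apart from genotype.

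Tbx18 belongs to the T-box family and marks the undifferentiated mesenchyme around the early ureter, which later forms the smooth muscle and fibroblast coat of that duct. T-box factors bind a short DNA element and can activate or repress nearby genes, and Tbx18 is known mainly as a repressor. VP16 is a strong viral activation domain, so its fusion to such a factor can raise genes that the native protein keeps low.

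Levels are log2 signals minus the 75th percentile of the array, so a level of 0 is the 75th percentile of the probes and each step of 1 is a doubling. Changes are Tbx18VP16 minus null on this log2 scale, with the standard error (SE) of a limma fit of 3 group means to all 8 arrays. P-values were adjusted by the Benjamini-Hochberg method across 20528 genes, and genes with an adjusted p below 0.05 are said to have risen or fallen in Tbx18VP16 relative to null. A probe is called well above background where the scanner software marked it so on at least a share of 0.5 of its retained spots. Where no array of the dimmer group reached that, the gene is called undetected there and the difference is given as a lower bound ("at least"). The bound is for the processed signals, and another background correction can give a smaller change.

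Null and control arrays shared 1 design, while the Tbx18VP16 pools were hybridised to a different one, on a separate slide with a separate scan. Between these 2 groups, genotype cannot be told apart from design, slide and scan, and no fit with these as fixed terms can be had. Nulls 1 and 2 shared a slide with controls 1 and 2, and null 3 shared another with control 3, where input was 10 ng of total RNA in place of 20 ng. Between 60.1% and 66.0% of probes were well above background and none was saturated. In such bulk samples fewer cells of a type and less RNA per cell cannot be told apart.

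Null 3 stood apart by its markers of other cells. The summed signal of 14 erythroid genes, as multiples of the array's 75th percentile, was 6.57, 27.1 and 562 in nulls 1, 2 and 3 and 4.05 and 9.40 in the Tbx18VP16 pools. For 17 endothelial genes the sums were 5.96, 5.89 and 24.2 in the nulls and 2.54 and 2.99 in Tbx18VP16. For 27 genes of the ureteric epithelium they were 4.67, 10.2 and 23.7 in the nulls and 5.54 and 6.31 in Tbx18VP16. Null 3 was thus the highest of the 5 arrays in all 3 lists, and null 1 lay near the Tbx18VP16 pools for blood and epithelium. The part of these markers in the results was not tested.

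**Figure D1:**
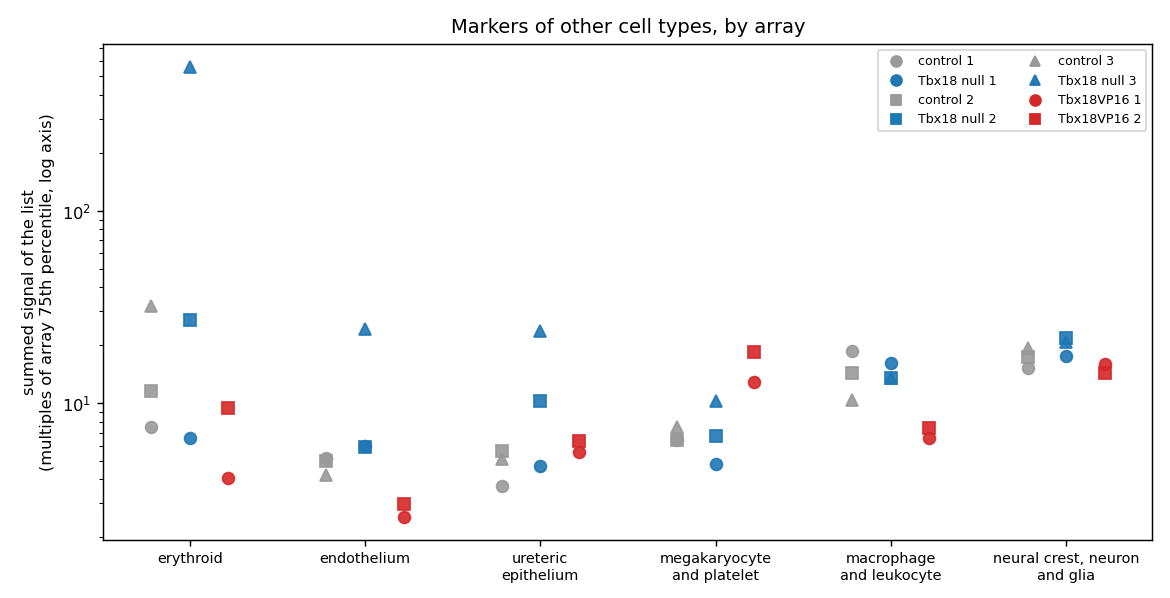
Summed signal of 6 marker lists on each of the 8 arrays, as multiples of the array's 75th percentile on a log axis. Null 3 had the highest erythroid sum, 562, and both Tbx18VP16 pools had the highest platelet sums, 12.8 and 18.5.

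Tbx18 and Hprt, the loci that the genotypes alter, both differed between the groups. The Tbx18 probe (chromosome 9, 87599514 to 87599573, minus strand, mm9) was at -2.40, -1.34 and -2.35 in nulls 1, 2 and 3 and at 1.34 and 1.06 in Tbx18VP16 pools 1 and 2. The groups did not overlap, and the Tbx18VP16 levels lay among or just above those of the controls, -0.02, 1.20 and 1.04. The change was 3.23 ± 0.45 (SE; adjusted p = 0.0142). Null levels were well above background. The labels do not say whether the GFP allele or the transgene still yields the sequence under this probe.

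Hprt encodes the purine salvage enzyme hypoxanthine phosphoribosyltransferase and is often used as a housekeeping gene. Its probe (chromosome X, 50374757 to 50374816, plus strand, mm9) was at 2.82, 2.40 and 2.87 in the nulls and at -1.94 and -1.57 in the Tbx18VP16 pools. Both Tbx18VP16 pools were far below every other array. Hprt fell by 4.45 ± 0.32 on the log2 scale (SE; adjusted p = 0.00158), and it stayed past the threshold without either Tbx18VP16 array, with adjusted p of 0.0407 and 0.0422. The other 15 tested genes of purine salvage and synthesis had 0 calls, against 3.66% called over all genes.

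Across all genes, 752 of 20528 (3.66%) passed the threshold, 241 (1.17%) higher and 511 (2.49%) lower in Tbx18VP16, and 748 (3.64%) differed at least 2-fold. At an unadjusted p under 0.05, 4526 genes (22%) differed. The arrays of all 752 did not overlap between the groups, as was the case for 48.3% of all genes tested. The split between higher and lower depended on the scaling, which moved the median change of all genes from -0.15 to 0.12 with each array's median as reference and to -0.01 with quantile normalization or the authors' values. The split was 335 higher and 237 lower with the median, 351 and 419 with quantile normalization, and 388 and 405 with the authors' deposited values. Of the 752 genes, 735 had the same direction in every alternative that tested them.

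The calls leaned on both Tbx18VP16 arrays. With Tbx18VP16 1 or 2 left out, a lone array stood for its group and most calls were lost. What led to that loss was not tested. Without null 2 or control 2 the count of genes that passed was 160 or 346, and without null 3 it was 447 (188 higher and 259 lower). Among genes that the naming rule takes, Mettl7b, Irf5, Tlx1, Npy, Nts and Hprt passed without any 1 of the 8 arrays. These fits kept the genes chosen on all 8 arrays. Mettl7b and Tlx1 had entered through the 2 Tbx18VP16 arrays alone, so without either array they would not have met the filter.

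Calls near the threshold also depended on how shared slides and numbers were modelled. With slide as a random block (correlation 0.0607), 550 genes passed, 195 higher and 355 lower, all of them among the 752. Null and control pools of 1 number deviated together (correlation 0.734). With each such pair as a random block, 580 genes passed, 193 higher and 387 lower, of which 529 were among the 752. Of the genes named here, 14 lost their call with slide as the block (adjusted p from 0.0535 to 0.0633, limma) and 24 with the pairs (adjusted p from 0.0502 to 0.151). Both blocks ended the calls of Cdh15, Cnn1, F2rl2, Gp5, Gp6, Hand2, Igf1, Inhba, Ndrg1, Sox10 and Th. The slide block but not the pairs ended those of Chad, Efemp1 and Foxf2. The pairs but not the slide block ended those of Card6, Corin, Elavl3, Etd, Fgfr3, Gp1ba, Hs3st6, Kdr, Ntn1, Phf19, Prph, Sema3e and Tgfbr3. Normexp background correction ended the calls of 22 of the genes named here (adjusted p from 0.0515 to 0.979, limma). A fit of only the 5 arrays compared also ended 22, Ccng1 and Phlda3 among them (adjusted p from 0.0515 to 0.0844, limma). Scaling by the median, quantile normalization and the authors' values ended 10, 6 and 7, each with Cdh15, Chad, Col8a1, Elavl3 and Sox10 among them.

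**Figure D2:**
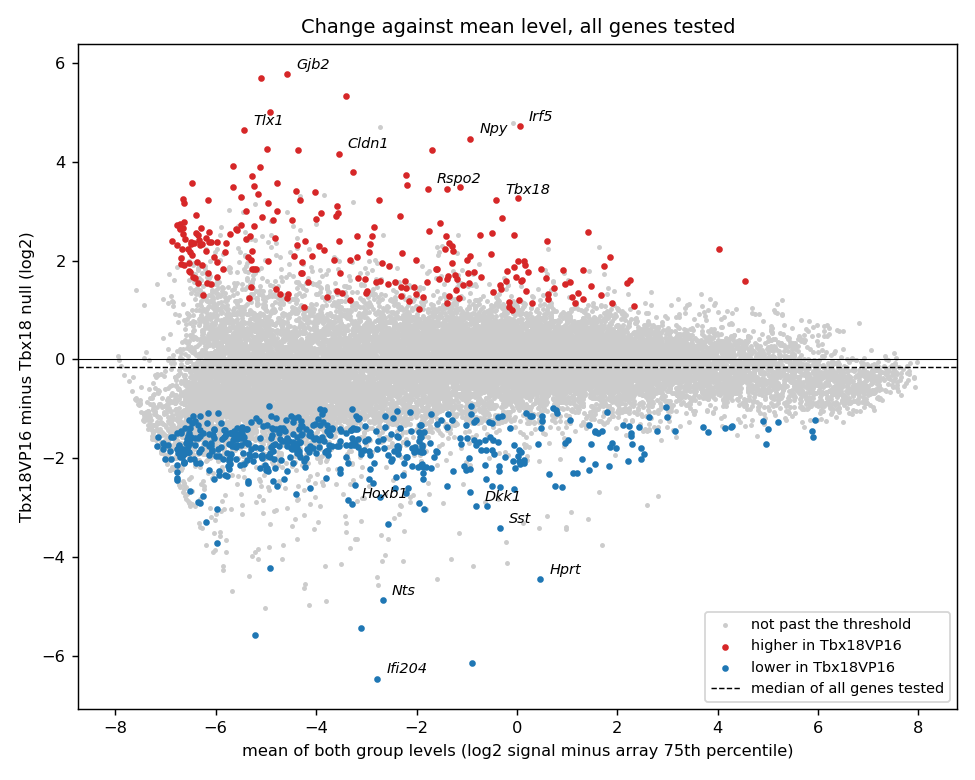
Change (Tbx18VP16 minus Tbx18 null, log2) against the mean of both group levels for the 20528 genes tested. The 241 genes called higher are red and the 511 called lower are blue, and the dashed line is the median of all genes, -0.15.

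Of the 15 genes with the largest rises, 6 were undetected on all null arrays. The test took genes well above background on 2 or more of the 8 arrays. These 6 were undetected in controls too and entered through the Tbx18VP16 arrays alone, so this filter itself favoured a rise. They were not among the genes tested with a filter of 4 of the 5 compared arrays. Gjb2, which encodes the gap junction protein connexin 26, was at -7.88, -7.93 and -6.59 in the nulls and at -1.96 and -1.42 in Tbx18VP16. It was well above background on no null or control array, which gives a level at least 28.9-fold higher in Tbx18VP16 (adjusted p = 0.00302). The methyltransferase-like gene Mettl7b was likewise undetected in nulls and controls and was at -2.52 and -2.0 in the Tbx18VP16 pools, at least 19.7-fold higher (adjusted p = 0.000908). For such dim genes the fitted change varied with the background correction. That of Gjb2 was 5.77 on the processed signals and 2.68 after normexp correction, past the threshold with either.

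Several of these genes were also clearly present in the null. Irf5, an interferon regulatory factor, was at -2.12, -2.11 and -2.68 in the nulls and at 2.47 and 2.36 in Tbx18VP16. The change of 4.71 ± 0.25 (SE; adjusted p = 0.000908) set the Tbx18VP16 pools far above all 6 other arrays. Npy, the precursor of neuropeptide Y, was at -3.57, -3.11 and -2.82 in the nulls and at 0.76 and 1.85 in Tbx18VP16, a change of 4.47 ± 0.37 (SE; adjusted p = 0.0023). Adra2a, a receptor for noradrenaline, was at -4.27, -3.84 and -3.32 in the nulls and at 0.29 and 0.57 in Tbx18VP16 and rose by 4.24 ± 0.35 (SE; adjusted p = 0.00227). The tachykinin precursor gene Tac2 and the homeobox gene Dbx2 rose by 3.73 ± 0.34 and 3.79 ± 0.31 (SE). In all 5 the Tbx18VP16 levels were above every null and control level.

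Tlx1, a homeobox gene needed for the spleen, was at -7.42, -8.37 and -7.49 in the nulls and at -3.11 and -3.12 in Tbx18VP16. It was undetected on all null and control arrays and so at least 10.9-fold higher (adjusted p = 0.00158), while after normexp correction its change was 1.43 (adjusted p = 0.0523). Plppr5, a phospholipid phosphatase-related gene, Tctex1d1, of the dynein light chain family, and Pabpn1l, related to nuclear poly(A)-binding proteins, were also undetected in the null. They were at least 13.1-fold, 9.73-fold and 7.22-fold higher. After normexp correction their changes were smaller than these bounds, at 1.52, 1.29 and 1.0. Tctex1d1 and Pabpn1l then did not pass (adjusted p = 0.0597 and 0.085). Itga7, the laminin-binding integrin subunit alpha 7, was well above background on 2 of 3 null arrays and changed by 5.32 ± 0.63 (SE; adjusted p = 0.00852). The Itga7 probe (chromosome 10, 128395274 to 128395333, plus strand, mm9) lies close to that of Mettl7b (128395667 to 128395726, minus strand). Whether these 2 rises are separate was not tested. Corin, a protease that processes natriuretic peptide precursors, was well above background on 1 of 3 null arrays and changed by 4.24 ± 0.72 (SE; adjusted p = 0.0249). After normexp correction the change of Corin was 1.98, so its size depended on the background correction. Cldn1, a tight junction claudin, was well above background on 2 of 3 null arrays and changed by 4.16 ± 0.36 (SE; adjusted p = 0.00279).

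**Figure D3:**
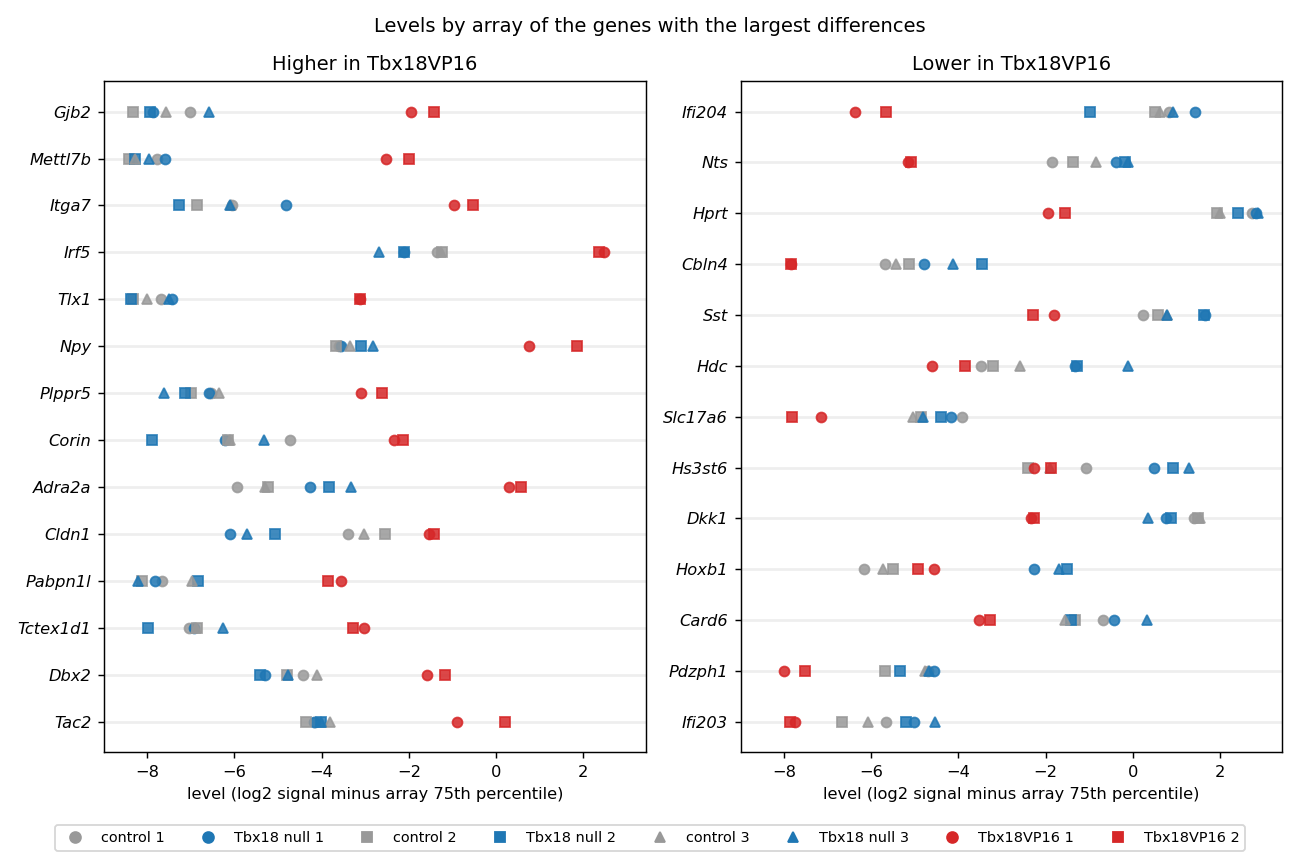
Levels (log2 signal minus the array's 75th percentile) on all 8 arrays of genes with the largest rises, left, and the largest falls, right, in Tbx18VP16 against null. For Gjb2 the Tbx18VP16 pools were at -1.96 and -1.42 and all other arrays below -6.5, and for Ifi204 the Tbx18VP16 pools were at -6.36 and -5.66.

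Among the 15 largest falls were the peptide precursor genes Nts and Sst, while Npy and Tac2 were among the rises. Nts, the neurotensin precursor, was at -0.40, -0.18 and -0.12 in the nulls and at -5.15 and -5.08 in Tbx18VP16, a change of -4.88 ± 0.31 (SE; adjusted p = 0.00111). Sst, which encodes somatostatin, was at 1.67, 1.64 and 0.79 in the nulls and at -1.82 and -2.29 in Tbx18VP16, a change of -3.42 ± 0.34 (SE; adjusted p = 0.00474). For both genes the Tbx18VP16 pools were the lowest of all 8 arrays. Hdc, the enzyme that makes histamine, changed by -3.33 ± 0.46 (SE; adjusted p = 0.0138). Cbln4, a cerebellin that acts at synapses, and Slc17a6, a vesicular glutamate transporter, were undetected in Tbx18VP16. They were at least 4.52-fold and 3.57-fold lower (adjusted p = 0.00557 and 0.0119). After normexp correction their changes were -1.66 and -1.37, and Slc17a6 did not pass (adjusted p = 0.0577).

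Another of these was Dkk1, a secreted inhibitor of WNT receptors, which was at 0.75, 0.87 and 0.35 in the nulls and at -2.34 and -2.28 in Tbx18VP16. The change of -2.97 ± 0.24 (SE; adjusted p = 0.00227) set the Tbx18VP16 pools below all 6 other arrays. Hoxb1, the most anterior gene of the Hoxb cluster, was at -2.27, -1.50 and -1.69 in the nulls and at -4.56 and -4.92 in Tbx18VP16, a change of -2.92 ± 0.32 (SE; adjusted p = 0.00688). Its Tbx18VP16 levels lay between those of the null and the control pools. Hs3st6, which sulfates heparan sulfate, changed by -2.97 ± 0.42 (SE; adjusted p = 0.0139). Card6, of the caspase recruitment domain family, changed by -2.90 ± 0.49 (SE; adjusted p = 0.0249), and Pdzph1 was undetected in Tbx18VP16 and at least 2.71-fold lower (adjusted p = 0.0126). After normexp correction Pdzph1 changed by -1.23 and did not pass (adjusted p = 0.0577).

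Ifi204, an interferon-inducible DNA sensor gene, had the lowest change of all named genes. It was at 1.43, -0.99 and 0.92 in the nulls and at -6.36 and -5.66 in Tbx18VP16, where 1 of 2 arrays was well above background, and changed by -6.46 ± 0.64 (SE; adjusted p = 0.00439). A second Ifi204 probe gave -5.24. Its relatives Ifi203 and Mndal were undetected in Tbx18VP16 and at least 2.62-fold and 2.42-fold lower (adjusted p = 0.00852 and 0.0255). A second Ifi203 probe gave -0.72, a smaller difference than that bound, and after normexp correction Ifi203 did not pass (adjusted p = 0.0533). The probes of all 3 lie close together on chromosome 1, at 175677647, 175850536 and 175787550 in mm9. They belong to a family of similar genes, so signal from 1 member on the probe of another cannot be set aside. The other 18 tested genes of the interferon response had 0 calls, against 3.66% called over all genes. The median of the list was -0.45 against -0.15 for all genes. Irf5 is not on that list.

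Promoter letters were read for the largest changes from RefSeq's table (GRCm38.p6), which holds 250 bases before to 50 after a gene's start. GGTGTG, the core of the element that T-box factors bind, was searched on both strands, and AGGTGTGA as a longer form that contains it. The table held a promoter for 23 of the 30 genes with the largest rises and falls, of which Corin, Npy, Cbln4 and Pdzph1 had GGTGTG upstream of the start and Dbx2 after it. The 80 bases around each match are printed on the strand of the gene, with the match in capitals. For Cbln4 the match is on the other strand and reads CACACC.
Npy, rose, chr6:49822512-49822591, plus strand: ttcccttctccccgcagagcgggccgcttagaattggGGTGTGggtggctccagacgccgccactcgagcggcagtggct
Corin, rose, chr5:72504700-72504779, minus strand: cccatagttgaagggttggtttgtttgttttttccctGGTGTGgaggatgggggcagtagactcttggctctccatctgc
Cbln4, fell, chr2:172043558-172043637, minus strand: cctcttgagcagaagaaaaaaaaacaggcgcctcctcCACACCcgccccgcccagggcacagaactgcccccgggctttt
Pdzph1, fell, chr17:58991510-58991589, minus strand: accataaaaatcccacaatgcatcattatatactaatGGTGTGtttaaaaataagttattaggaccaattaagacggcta
The matches begin 161, 202, 134 and 177 bases before the start. GGTGTG was found in 36 of 154 promoters (23.4%) of genes that rose, in 58 of 296 (19.6%) of genes that fell, and in 21.0% of the 13087 promoters of all genes tested. AGGTGTGA was found in 1 of 154, 3 of 296 and 1.18% of these. Neither was found in the window of Tbx18 or of Hprt.

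Of 27 tested genes of the ureteric mesenchyme, the cells that normally express Tbx18, 3 rose and 0 fell, and the median change was 0.34, against -0.15 and 3.66% called over all genes. Among these were Tbx18 and the forkhead factor gene Foxf2. Foxf2 was at 1.93, 1.34 and 1.07 in the nulls and at 3.20 and 2.90 in Tbx18VP16, a change of 1.61 ± 0.35 (SE; adjusted p = 0.049). The Tbx18VP16 pools were also above the controls in Foxf2. The related gene Foxf1, the zinc finger gene Tshz2 and Bmp4, a ligand that this mesenchyme secretes, had changes of 1.60, 0.84 and -0.76 and did not pass (adjusted p = 0.0887, 0.113 and 0.364). Second probes of Foxf1, Tshz2 and Bmp4 gave 1.10, 1.08 and -2.26.

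Renal stroma, the interstitial lineage beside the ureter, had 1 call among 19 genes, against 3.66% of all genes, and a median of 0.28. That gene was Ntn1, which encodes the guidance cue netrin 1, at -3.53, -2.77 and -2.76 in the nulls and -1.02 and -1.0 in Tbx18VP16, a change of 2.01 ± 0.36 (SE; adjusted p = 0.0277, and 0.0878 with control and null pairs as a block). Foxd1, the factor that defines the lineage, was high in both groups, at 2.70, 3.54 and 3.24 in the nulls and at 3.99 and 4.48 in Tbx18VP16, and its change of 1.08 ± 0.36 did not pass (SE; adjusted p = 0.138).

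Splenic and lateral plate mesoderm genes had a median change of 0.86, and 3 of 18 rose, against 1.17% of all genes, while 0 fell. These were Tlx1, Foxf2 and Hand2, a bHLH factor gene that was at -2.55, -1.94 and -1.52 in the nulls and -0.47 and -0.30 in Tbx18VP16, a change of 1.62 ± 0.34 (SE; adjusted p = 0.0458). Nkx2-3, a homeobox gene of spleen and gut mesoderm, had a change of 1.45 and Nkx2-5 one of -1.18, and neither passed (adjusted p = 0.124 and 0.268). Tlx1 entered the test through the Tbx18VP16 arrays alone, so the filter favoured its rise. It did not pass after normexp correction (adjusted p = 0.0523, limma). The list counts Foxf2 with the ureteric mesenchyme as well. Without null 3 the same number of its genes, 3, passed, and the median was 0.95.

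Nephron progenitor genes had a median change of -0.53, and 1 of 26 passed the threshold, a share near the 3.66% of all genes. The median levels of the list in the Tbx18VP16 pools, -0.57 and -0.74, lay within the range of the nulls, -1.11 to 0.84. Phf19, a Polycomb-associated gene, fell, from -1.83, -0.89 and -0.34 in the nulls to -3.26 and -3.09 in Tbx18VP16, a change of -2.16 ± 0.42 (SE; adjusted p = 0.0368, and 0.134 with control and null pairs as a block). Six2, which maintains these progenitors, was at 1.59, 3.29 and 3.90 in the nulls and at 0.85 and 1.14 in Tbx18VP16 and did not pass (change -1.93; adjusted p = 0.113). Fgf20, a ligand of these cells, was at -4.36, -2.07 and -1.56 in the nulls and at -6.02 and -5.61 in Tbx18VP16 (change -3.15; adjusted p = 0.0621). In Six2 and Fgf20 null 1 was nearest to the Tbx18VP16 pools and null 3 farthest from them, the order seen in the epithelial markers. Crym, which binds thyroid hormone, and the homeobox gene Meox2 had changes of -2.89 and -2.78 (adjusted p = 0.0838 and 0.1).

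Not all progenitor genes were lower. Wt1, which is shared by progenitors and coelomic epithelium, was at 3.59, 3.28 and 3.69 in the nulls and at 4.30 and 4.66 in Tbx18VP16, a change of 0.96 ± 0.30 (SE; adjusted p = 0.116). Meox1 was at -1.40, -0.03 and 0.91 in the nulls and at 0.46 and 0.80 in Tbx18VP16 and overlapped between the groups. Without null 3 the median of the list was -0.38 against -0.21 for all genes, and 0 passed. Of 17 genes of coelomic epithelium and gonad 0 passed, against 3.66% of all genes, and the median was 0.47. Gata4 and Lhx9, transcription factors of the gonadal ridge, had changes of 1.27 and 1.38 (adjusted p = 0.0808 and 0.102).

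Of 44 genes of the WNT pathway, Rspo2, Rspo3 and Fzd10 rose and Dkk1 fell, against 1.17% and 2.49% of all genes. The median change of the list was -0.06. R-spondins are secreted proteins that keep WNT receptors at the cell surface. Rspo2 was at -3.73, -3.74 and -3.05 in the nulls and at -0.13 and 0.03 in Tbx18VP16, a change of 3.45 ± 0.28 (SE; adjusted p = 0.00227). Rspo3 was at 0.46, 0.80 and 1.13 in the nulls and at 2.61 and 2.74 in Tbx18VP16, a change of 1.88 ± 0.25 (SE; adjusted p = 0.0122). In both, the Tbx18VP16 pools were above all nulls and controls. The WNT receptor gene Fzd10 changed by 1.19 ± 0.22 (SE; adjusted p = 0.033).

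The WNT ligand genes did not pass. Wnt4, which drives the conversion of mesenchyme to epithelium in the nephron, was at 4.41, 2.88 and 2.64 in the nulls and at 1.73 and 1.98 in Tbx18VP16 (change -1.45; adjusted p = 0.224). Wnt9b, the signal of the ureteric epithelium to the mesenchyme, was at -5.16, -2.14 and -1.12 in the nulls and at -5.74 and -6.35 in Tbx18VP16 (change -3.24; adjusted p = 0.114), with null 3 the highest, as in the epithelial markers. Wnt5a and Wnt16 had changes of 1.55 and 2.46 (adjusted p = 0.154 and 0.0646).

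Of 36 genes of BMP and TGF-beta signalling, 4 rose, against 1.17% of all genes, and 0 fell, with a median of 0.28. The ligand gene Gdf6 was at -5.45, -3.78 and -3.86 in the nulls and -1.19 and -1.10 in Tbx18VP16, a change of 3.22 ± 0.63 (SE; adjusted p = 0.0376). Bmp5, another ligand gene, was at -3.23, -2.86 and -3.02 in the nulls and -1.57 and -1.60 in Tbx18VP16, a change of 1.46 ± 0.25 (SE; adjusted p = 0.0249), and its Tbx18VP16 levels lay within the range of the controls. Tgfbr3, the co-receptor betaglycan, changed by 1.51 ± 0.26 and Inhba, an activin subunit, by 1.23 ± 0.27 (SE; adjusted p = 0.0249 and 0.0481). Inhba was well above background on 2 of 3 null arrays. After normexp correction its change was 0.068 and it did not pass (adjusted p = 0.893), so its rise depended on the background correction. Gdf10, a further ligand gene of the family, had a change of 3.32 and did not pass (adjusted p = 0.0678). Without null 3, 0 of the 36 passed, while the median was 0.21.

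Among other signalling lists, Fgfr3 rose alone of 22 FGF genes, by 1.90 ± 0.33 (SE; adjusted p = 0.0254), and the list median was -0.17. The shares over all genes, for this and the lists that follow, were 1.17% risen and 2.49% fallen. Of 18 retinoic acid genes Cyp26a1 fell, an enzyme that degrades retinoic acid. It was undetected in Tbx18VP16 and at least 2.79-fold lower (adjusted p = 0.0145). After normexp correction Cyp26a1 changed by -0.93 and did not pass (adjusted p = 0.0895). Of 14 hedgehog and 19 Notch genes 0 passed. Of 36 Hox genes Hoxb1 alone passed, and the median of the others and Hoxb1 together was 0.17. Of 15 IGF genes Igf1 passed, on a probe with a change of -1.58. Of 4 further Igf1 probes 1 gave -1.92 and the others 0.05, 0.18 and 0.84, and the mean of all its probes, -0.49, did not pass (adjusted p = 0.645).

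Of 19 elastic fibre genes 2 rose, against 1.17% of all genes, 0 fell and the median was 0.32. With the mean of all probes of a gene 1 rose and the median was 0.01. Loxl1, an enzyme that cross-links elastin, was at 0.30, 0.59 and 0.32 in the nulls and at 1.96 and 2.47 in Tbx18VP16, a change of 1.81 ± 0.26 (SE; adjusted p = 0.0162). Efemp1, or fibulin 3, changed by 2.85 ± 0.62 (SE; adjusted p = 0.049). Elastin itself, Eln, had a change of 1.31, the fibre assembly gene Fbln5 one of 1.57 and Ltbp1, which tethers latent TGF-beta to the matrix, one of 1.81, and these did not pass (adjusted p = 0.0719, 0.112 and 0.0666).

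Dcn, which encodes the small proteoglycan decorin, was the call among 6 proteoglycan genes. It was at 1.18, 0.59 and 1.09 in the nulls and at -1.13 and -1.08 in Tbx18VP16, a change of -2.06 ± 0.32 (SE; adjusted p = 0.0193), with controls higher still, at 2.84, 1.95 and 2.58. Its relative Lum, lumican, was at -2.98, -2.98 and -1.08 in the nulls and at -4.93 and -4.82 in Tbx18VP16 and lay just outside the threshold (change -2.53; adjusted p = 0.0564). Of 24 collagen genes Col8a1, of the short-chain collagens, fell, with a change of -2.22 ± 0.42 (SE; adjusted p = 0.034). Col8a1 did not pass with median scaling, quantile normalization or the authors' values (adjusted p = 0.0579, 0.0623 and 0.0549). Of 30 integrin and laminin genes only Itga7 passed.

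Cadherins, the calcium-dependent adhesion proteins, had a median change of -1.07. Of 16 tested, 3 fell and 1 rose, against 2.49% and 1.17% of all genes. Cdh9 was at -2.31, -2.31 and -2.37 in the nulls and at -4.38 and -4.45 in Tbx18VP16, a change of -2.09 ± 0.26 (SE; adjusted p = 0.00961). Cdh6, a cadherin of early nephron epithelium, was at 0.51, 0.18 and -0.59 in the nulls and at -1.92 and -2.0 in Tbx18VP16, a change of -1.99 ± 0.35 (SE; adjusted p = 0.0281). A second Cdh6 probe gave -0.83, and the mean of all its probes, -1.41, did not pass (adjusted p = 0.064, limma). Cdh15 changed by -1.15 ± 0.25 (SE; adjusted p = 0.0485). In the opposite direction Cdh22 was at -2.34, -3.35 and -3.45 in the nulls and -0.70 and -0.20 in Tbx18VP16, a change of 2.60 ± 0.41 (SE; adjusted p = 0.0211). The list holds epithelial and endothelial cadherins, and without null 3 its median was -0.84 with the same counts of calls.

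Targets of the stress-responsive factor p53 included 3 that rose, of 27 tested, against 1.17% of all genes, and 0 that fell. Their median change was 0.32. Pmaip1, or Noxa, a promoter of apoptosis, was at -6.41, -5.15 and -4.61 in the nulls, where 2 of 3 arrays were well above background, and at -2.47 and -2.37 in Tbx18VP16. It changed by 2.97 ± 0.47 (SE; adjusted p = 0.0203). Ccng1, cyclin G1, changed by 1.32 ± 0.23 and Phlda3, which restrains AKT signalling, by 1.30 ± 0.22 (SE; adjusted p = 0.0251 and 0.025). Cdkn1a, the cell cycle inhibitor p21, had a change of 1.26 ± 0.70, Zmat3 one of 1.21 ± 0.29 and Mdm2, which targets p53 for degradation, one of 0.35 ± 0.26 (SE), and none of them passed (adjusted p = 0.328, 0.0609 and 0.454). The counts were the same without null 3. In a fit of only the 5 arrays compared, Ccng1 and Phlda3 did not pass (adjusted p = 0.0591 and 0.0594, limma). Of 31 genes of cyclins, replication and mitosis and of 7 CDK inhibitor genes 0 passed, with medians of -0.07 and 0.35.

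Among the remaining lists of tissue genes, the smooth muscle gene Cnn1 rose alone of 11, by 1.76 ± 0.37 (SE; adjusted p = 0.045), and the cartilage gene Chad fell alone of 18, with a change of -1.32 ± 0.28 (SE; adjusted p = 0.0474). Of 30 genes of hypoxia and glycolysis Ndrg1 rose and Adm, which encodes adrenomedullin, fell, with changes of 1.29 and -1.72 (adjusted p = 0.0484 and 0.0224). Of 40 guidance genes Ntn1 and Sema3e, a semaphorin, rose, against 1.17% of all genes. After normexp correction Sema3e changed by 0.36 and did not pass (adjusted p = 0.43). Of 34 ribosomal protein genes 0 passed. Their median was -0.43 with the 75th percentile as reference but 0.01 above the median of all genes after quantile normalization, so a direction for this family depends on the scaling.

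**Figure D4:**
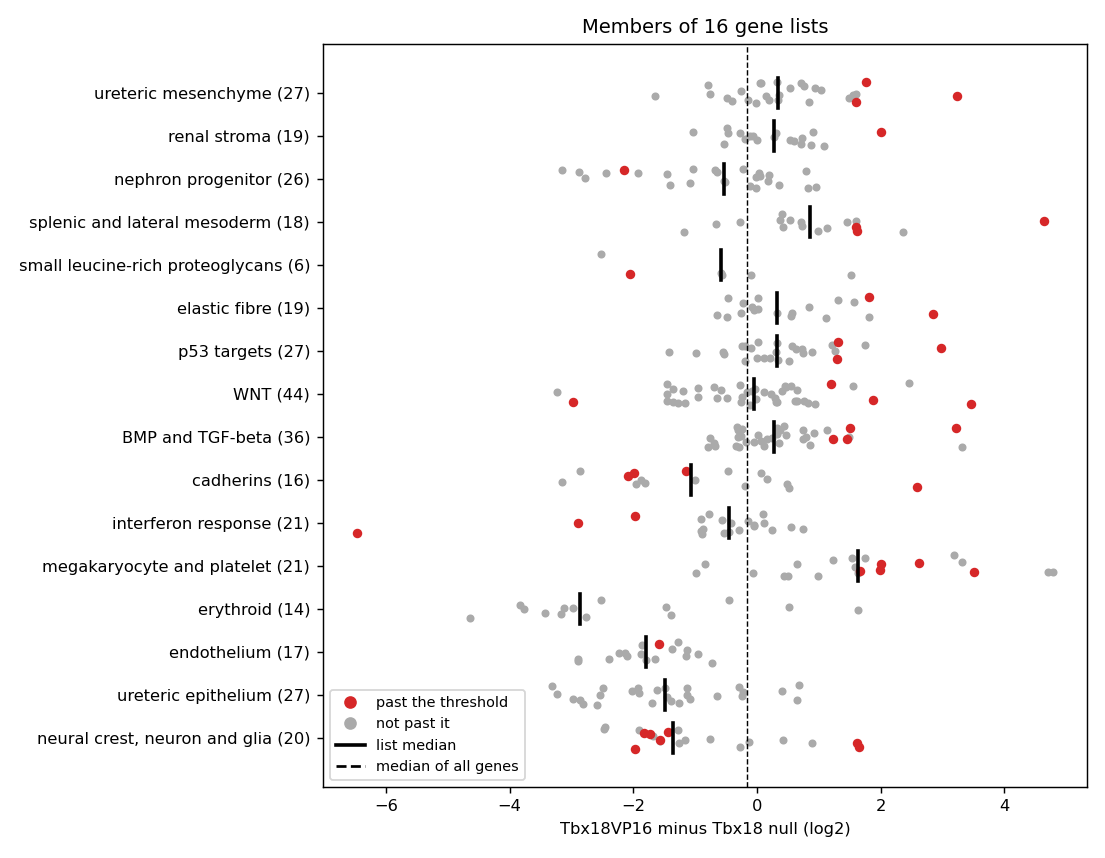
Changes (Tbx18VP16 minus Tbx18 null, log2) of the tested members of 16 gene lists, with the number of genes in brackets. Red points passed the threshold, black bars are list medians and the dashed line is the median of all genes, -0.15, with splenic and lateral mesoderm at 0.86, platelet genes at 1.63 and erythroid genes at -2.87.

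Markers of cells outside the mesenchyme differed between the groups. Megakaryocyte and platelet genes stood higher in Tbx18VP16, with 5 of 21 risen, against 1.17% of all genes, 0 fallen and a median of 1.63. The sums were 4.84, 6.71 and 10.2 in the nulls, 6.42, 6.44 and 7.51 in the controls and 12.8 and 18.5 in Tbx18VP16. Gp1ba and Gp5, subunits of the platelet receptor for von Willebrand factor, changed by 3.50 ± 0.56 and 2.63 ± 0.54, and Gp6, a collagen receptor, by 2.01 ± 0.41 (SE; adjusted p = 0.0216, 0.0432 and 0.0415). Each of the 3 was well above background on 1 null array. The platelet tubulin gene Tubb1 changed by 1.98 ± 0.28 (SE; adjusted p = 0.0154), and the thrombin receptor gene F2rl2 was at least 2.37-fold higher (adjusted p = 0.0468). F2rl2 entered the test through the Tbx18VP16 arrays alone, so the filter favoured its rise. After normexp correction F2rl2 changed by -0.016 (adjusted p = 0.979), so its direction depended on the background correction. Of the 21 platelet genes, 2 passed after normexp, with a median of 0.47, 2 with slide as a random block and 1 with control and null pairs as a block.

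The platelet chemokine gene Pf4 was at -6.26, -1.59 and 0.42 in the nulls and at 1.83 and 2.78 in Tbx18VP16, where both pools were above every other array. Its change of 4.78 ± 1.68 did not pass (SE; adjusted p = 0.152), and neither did that of Ppbp, 4.70 ± 1.18 (SE; adjusted p = 0.0694). Without null 3, 9 of the 21 passed and the median was 1.95. The part of these transcripts in other rises was not tested.

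The erythroid, endothelial and epithelial lists stood lower in Tbx18VP16, with median changes of -2.87, -1.79 and -1.49, with 0, 1 and 0 calls. Without null 3 the medians were -0.99, -0.67 and -0.89 against -0.21 for all genes, with 1, 0 and 0 calls, so most of the gap in blood and endothelium lay in that pool. Hba-a1, an alpha globin gene, was at 0.66, 2.72 and 7.33 in the nulls and at -0.97 and 0.59 in Tbx18VP16 (change -3.76; adjusted p = 0.242). Kdr, the VEGF receptor of endothelium, was at 0.35, 0.20 and 0.20 in the nulls and at -1.32 and -1.34 in Tbx18VP16, a change of -1.58 ± 0.30 (SE; adjusted p = 0.0326). Kdr differed in null 1 and null 2 as much as in null 3. A second Kdr probe gave -1.33, and the mean of all its probes, -1.45, did not pass (adjusted p = 0.104, limma). The endothelial gene Plvap and the claudin gene Cldn7 of ureteric epithelium had changes of -2.13 and -2.97 and did not pass (adjusted p = 0.0528 and 0.0766).

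Genes of neural crest, neurons and glia had a median of -1.36. Of 20 tested, 5 were lower and 2 higher, against 2.49% and 1.17% of all genes. Stmn2, a neuronal microtubule regulator, was at -1.63, -1.20 and -0.78 in the nulls and at -3.10 and -3.26 in Tbx18VP16, a change of -1.98 ± 0.30 (SE; adjusted p = 0.0179). The neurofilament gene Nefm changed by -1.73 ± 0.32, the catecholamine enzyme gene Th by -1.57 ± 0.32 and the crest factor gene Sox10 by -1.44 ± 0.32 (SE; adjusted p = 0.0309, 0.0424 and 0.0495). Elavl3 was undetected in Tbx18VP16 and at least 1.57-fold lower (adjusted p = 0.033). Hand2 and Prph, a neuronal intermediate filament, were the 2 that rose, Prph at least 1.96-fold (adjusted p = 0.0294). Prph entered the test through the Tbx18VP16 arrays alone, so the filter favoured its rise. After normexp correction Prph changed by -0.11 (adjusted p = 0.839). With control and null pairs as a block 3 of the 20 fell and 0 rose. The summed signal of the list was 17.5, 21.9 and 20.8 in the nulls and 15.9 and 14.2 in Tbx18VP16. The part of neuronal transcripts in the falls of Nts, Sst and Slc17a6 was not tested. Of 17 macrophage and leukocyte genes 0 passed, with a median change of 0.42 and 12 of 17 above the median of all genes. Their summed signal was lower in Tbx18VP16, with sums of 16.1, 13.5 and 13.6 in the nulls and 6.57 and 7.39 in Tbx18VP16.

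The control pools show on which side a difference lay. Of the 241 genes that rose in Tbx18VP16 relative to null, the control mean was nearer to the null or beyond it in 229, and of the 511 that fell in 479. Control lay within 1 log2 unit of the null for 197 and 472 of these. The controls share array design and slides with the nulls, so this split also follows the design. In the remaining 12 and 32 genes the control was nearer to Tbx18VP16 or beyond it, across the designs.

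Of those 44 genes, chosen after their values were seen, several are known regulators. Beside Tbx18, Cldn1 and Bmp5, Ebf1, a factor gene of stromal cells, was at -0.55, -0.26 and -0.52 in the controls, -1.65, -1.58 and -1.97 in the nulls and 0.16 and -0.09 in Tbx18VP16 (change 1.77 ± 0.24 (SE); adjusted p = 0.0122). The tendon homeobox gene Mkx was at -3.40, -3.67 and -3.60 in the controls, -5.29, -5.30 and -4.85 in the nulls and -3.21 and -3.60 in Tbx18VP16 (change 1.74 ± 0.25 (SE); adjusted p = 0.0162). In Mkx the nulls alone stood apart from the other 5 arrays. After normexp correction the change of Mkx was 0.74 and did not pass (adjusted p = 0.14). Tecta, which encodes the matrix protein tectorin alpha, changed by 3.41 ± 0.37 (SE; adjusted p = 0.00694). Among genes that fell, Hoxb1, Hs3st6, Hdc, Col8a1, Cyp26a1, Phf19, Cdh15, Sox10 and Elavl3 were of this kind. Col8a1 was at -6.85, -6.01 and -5.66 in the controls, -2.98, -1.88 and -2.40 in the nulls and -4.61 and -4.68 in Tbx18VP16.

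Some genes were at like levels in both mutants, although a p that misses the threshold does not show that they are equal. Rspo1, another R-spondin gene, was at 2.63, 1.89 and 2.69 in the nulls and 2.42 and 2.85 in Tbx18VP16, and the 95% interval of the change was -0.78 to 1.24. Ccdc160, a coiled-coil gene, was at -0.08, -0.52 and -0.59 in the nulls and at -0.27 and -0.21 in Tbx18VP16, with an interval of -0.42 to 0.73. For the CDK inhibitor gene Cdkn2b the interval was -0.25 to 1.86, and for Sp5, a direct WNT target, -0.72 to 1.63. The controls were lower in all 4, at -0.64, -2.05 and -1.37 for Rspo1 and -3.22, -3.17 and -2.86 for Ccdc160. These genes were chosen after their values were seen.

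Of 23 genes with probes within 2 Mb of the Hprt probe, 0 rose and 3 fell, against 1.17% and 2.49% of all genes. Their median change was 0.03. The named one, Etd, changed by -1.74 ± 0.34 (SE; adjusted p = 0.037) at 422 kb from Hprt and was undetected in Tbx18VP16, which leaves a bound of at least 1.1-fold lower. The other 2 carry clone-like names. Gpc3, a glypican gene nearby, had a change of 1.32 ± 0.46 and did not pass (SE; adjusted p = 0.147). Of 27 genes within 2 Mb of Tbx18, 0 passed, and the median was -0.11.

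**Figure D5:**
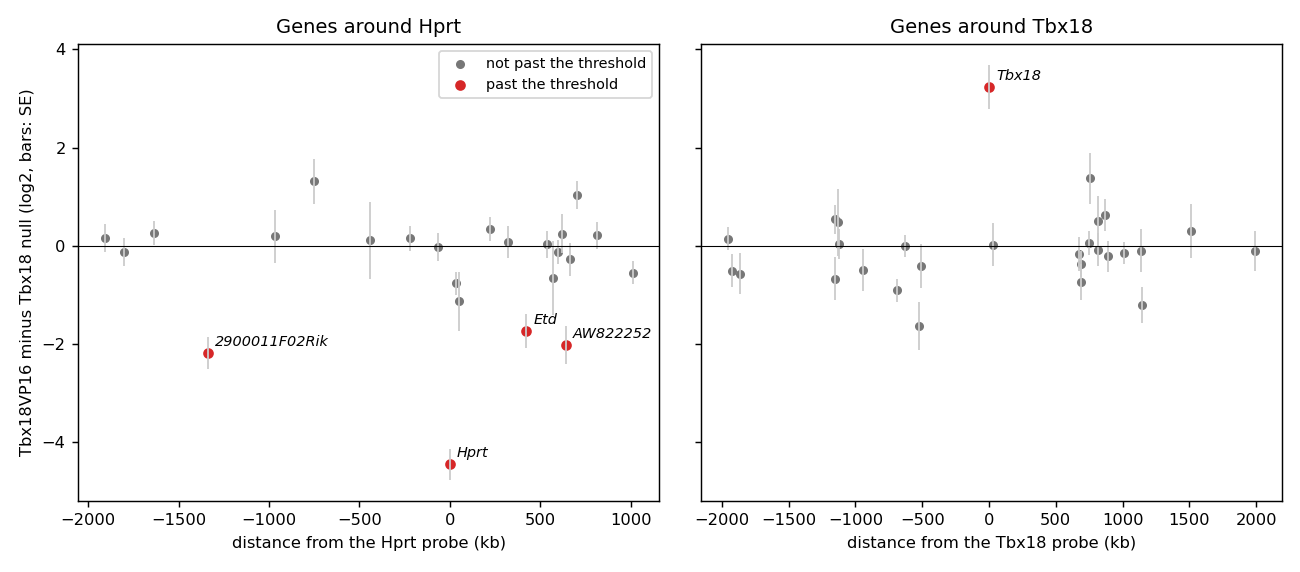
Change (Tbx18VP16 minus Tbx18 null, log2, bars SE) of genes with probes within 2 Mb of the Hprt probe, left, and the Tbx18 probe, right, against distance in kb. Beside Hprt at -4.45, 3 of 23 neighbours passed the threshold, and beside Tbx18 at 3.23, 0 of 27.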

How the data were processed

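GFP-positive cell pools were measured on 8 arrays of 1 colour, with groups and replicate numbers from the labels: 3 controls, 3 Tbx18 nulls and 2 Tbx18VP16. The deposited scanner files hold spot intensity that Agilent Feature Extraction 10.7.3.1 had background-corrected, per the file headers. The authors' deposited value table, an alternative here, holds linear intensity with identical sorted values in all columns and a lowest value of 10, so it was quantile-normalised and floored. No source used here names the software.

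Control spots, outlier spots (1.86% to 2.55%) and filler entries of the Tbx18VP16 design were left out, the 4 spots of each of 39429 common probes were averaged, and the log2 signal was set against the 75th percentile of the common probes (976 to 2129). Probes entered the test with a signal well above background on 2 or more of 8 arrays, and the probe of highest mean level stood for its gene. Names came from RefSeq tables (GRCm38.p6): 28765 probes by accession, 3068 by symbol and 213 by synonym, while 1743 went by the files' own name and 5640 were unnamed. Coordinates are those of the files (mm9).

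The groups were compared with limma 3.58.1 in R 4.3.3 (lmFit and eBayes, two-sided, residual df 5), whose test was tested on simulated data. Separate pools are the replicates, so p-values measure the spread between pools, and precision is limited by the number of arrays. Alternatives of scaling, background, filter, probe choice, samples, block and replicate were run. Null and Tbx18VP16 pools of 1 replicate number were not treated as pairs. Their deviations correlated at 0.0587 and -0.153. The deviations of 2 Tbx18VP16 pools from their mean are mirror images, so these values can hardly show pairing. The members and lists were chosen with earlier results of these data known, so lists are described without a test. Named genes are Tbx18, Hprt, the 15 largest rises and the 15 largest falls past the threshold with no overlap between groups, up to 5 members of smallest p of each list described with markers of other cell types, and called genes within 2 Mb of both loci. Clone-like names were left out, and a few genes under this rule are not reported here.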

Additional observations from a re-analysis of the deposited data

How the results depend on the processing

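Of 752 genes past the threshold, 735 kept their direction in every alternative that tested them, 246 passed under every scaling and background, and 153 in every alternative that left out no array. Normexp background correction gave 391 genes (132 higher, 259 lower), a filter of 4 of the 5 arrays 397 (136 and 261), and the 5 arrays alone 431 (267 lower). The authors' values gave 388 higher, and scaling by the median 237 lower. With 1 array left out the count ran from 11 to 819, with 7 to 280 higher and 4 to 539 lower. The change of Tbx18 was 3.01 after normexp and ran from 3.05 to 3.58 with 1 array left out. It lost its call without Tbx18VP16 1 or 2 (3.09 and 3.37; adjusted p = 0.162 and 0.164, limma). With the replicate block 3285 genes passed (768 higher, 2517 lower) on 3 residual degrees of freedom. These arrays cannot show whether the numbers pair null with Tbx18VP16 pools. Changes turned sign, all without a call, for F2rl2 (-0.016) and Prph (-0.11) after normexp, while with 1 array left out Rspo1 ran from -0.028 to 0.44 and Sp5 from -0.035 to 0.94. List medians moved beyond the spread between arrays in 68 combinations of list and alternative, most often with the median as scale, which moves all genes alike. Signal over background limits dim genes, whose changes are bounds.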
